A study of Mus musculus with 10 samples.

Results

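The constitutive proteasome genes were followed in macrophages sorted from mouse mammary tumours. The set was every gene whose symbol began with Psma, Psmb, Psmc, Psmd or Psme and a digit, without the immunoproteasome genes Psmb8, Psmb9 and Psmb10, and it held 42 of 21938 genes. It comprised 8 genes of the alpha ring and 8 of the beta ring of the core particle, 6 ATPases and 11 non-ATPase subunits of the cap, 3 assembly chaperones of the cap, 5 activator genes, and 1 gene that is not a subunit. That gene, Psmc3ip, encodes a cofactor of meiotic recombination and is named after a protein it binds. All mice were C57BL/6, and tumours had grown for 5 weeks from PyMT mammary tumour cells injected into the mammary glands. The control group (3 libraries) came from wild-type mice that carried wild-type tumour cells. For the Mertk KO group, 4 libraries came from mice lacking the receptor tyrosine kinase Mertk in macrophages, and the tumour cells were again wild-type. For the Ptdss1 knockdown group, 3 libraries came from wild-type mice whose tumour cells had reduced Ptdss1, a phosphatidylserine synthase. The labels do not name the driver of the macrophage deletion, the exons removed, the age and sex of the mice or the way the knockdown was made. Nor do they tie libraries to separate mice, and the spread that the p-values rest on may therefore be technical.

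The proteasome is the protease complex that degrades ubiquitin-tagged proteins in the cytosol and nucleus. Its core particle is a barrel of stacked rings. The outer alpha rings form the gate, and the inner beta rings carry the protease sites. The regulatory cap binds and deubiquitinates the tagged protein, and its ring of ATPases unfolds it and feeds it into the core. Other activators open the gate without ubiquitin. In macrophages and other immune cells, interferon-induced catalytic subunits can replace the constitutive ones and shift the peptides that are made for presentation on MHC class I.

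Levels are given on a log2 scale of reads normalised to library size plus 1, and a difference of 1 on this scale is a doubling. The libraries held 10292592 to 25815071 reads on genes. Between 6995 and 11523 genes reached 10 reads, an order that did not follow depth. Ptdss1 knockdown replicate 1 missed 31.5% of the genes seen in at least 7 other libraries, control replicate 2 missed 13.1%, and Mertk KO replicates 3 and 4 missed 8.60% and 5.75%, against 0.108% to 1.28% in the remaining 6. All 14 macrophage markers tested were read, with a mean level of 13.67 to 14.47 in every library and the lowest mean in Ptdss1 knockdown replicate 1. In that library the 5 neutrophil markers summed to 5561 normalised reads, against 421 to 1511 in the others, almost all of it Csf3r (log2 level 12.44), while S100a9 and Ly6g were at 0 in all 10 libraries. The 6 dendritic cell markers summed to 7922 in Mertk KO replicate 3, mostly Cd209a (12.92), against 0 to 1786 elsewhere, and the 6 markers of mammary epithelial or tumour cells to 2723 in Mertk KO replicate 4, against 5.20 to 1498. The 6 NK cell markers summed to 226 to 789 in Mertk KO, below the 1659 to 3380 of control and the 969 to 2167 of Ptdss1 knockdown. Klrk1 made up most of the sum in control replicates 2 and 3 (log2 levels 10.75 and 9.92). The same held in Mertk KO replicates 3 and 4 (7.82 and 9.08) and Ptdss1 knockdown replicates 1 and 3 (10.98 and 9.85). Gzma was at 0 in control replicate 2, Mertk KO replicates 3 and 4 and Ptdss1 knockdown replicate 3. In Ptdss1 knockdown replicate 2 the 5 T cell markers summed to 701, against 0 to 479 elsewhere. The 4 B cell markers summed to 619 there, against 0 to 143 elsewhere. The part of these in the values of the libraries was not tested. Mertk was read at 8.95 to 10.63 in the Mertk KO libraries and at 9.26 to 10.97 in control, so a value over the whole gene does not check the deletion. Ptdss1 was targeted in the tumour cells, from which the macrophages had been sorted, and its level in these libraries does not check the knockdown. It was at 1.85 in Ptdss1 knockdown replicate 1, the library that missed most genes, and at 9.43 and 9.58 in replicates 2 and 3. In control it was at 9.44 to 10.36, and in Mertk KO at 8.04 to 10.12.

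No proteasome gene differed between the groups past the threshold, a Benjamini-Hochberg adjusted p under 0.05 in limma over all 11564 genes tested. Of the 42 members, 41 passed the filter on low reads and 0 were called in each of the 3 comparisons. Between Mertk KO and control, 0.0173% of all genes tested were called. Between Ptdss1 knockdown and control, and between Mertk KO and Ptdss1 knockdown, 0% were called. At an unadjusted p under 0.05, 0 members stood out between Mertk KO and control, where 2.06% of all genes did. The count was 1 member, Psmd2, between Ptdss1 knockdown and control, against 2.90% of all genes, and 0 members between Mertk KO and Ptdss1 knockdown, against 3.73%. A second method, limma-voom on the recovered reads, also called 0 members in each comparison. These shares were near or below the background of all genes.

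The middle of the set lay close to 0 in every comparison. The median difference of the 41 members was -0.10 between Mertk KO and control, with 15 members above 0 and 26 below, and the median over all genes tested was 0.016. Between Ptdss1 knockdown and control the members' median was -0.07, with 19 above 0 and 22 below, against -0.05 over all genes. These comparisons share the 3 control libraries. Between Mertk KO and Ptdss1 knockdown the members' median was -0.05, with 16 above 0 and 25 below, against 0.11 over all genes. The median standard error of a member was 0.47, 0.50 and 0.47 in the 3 comparisons, and fitted differences above a doubling, such as that of Psmd2 described below, did not pass the threshold. In these sorted but bulk libraries, fewer cells with a transcript and less of it per cell cannot be told apart.

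**Figure D1:**
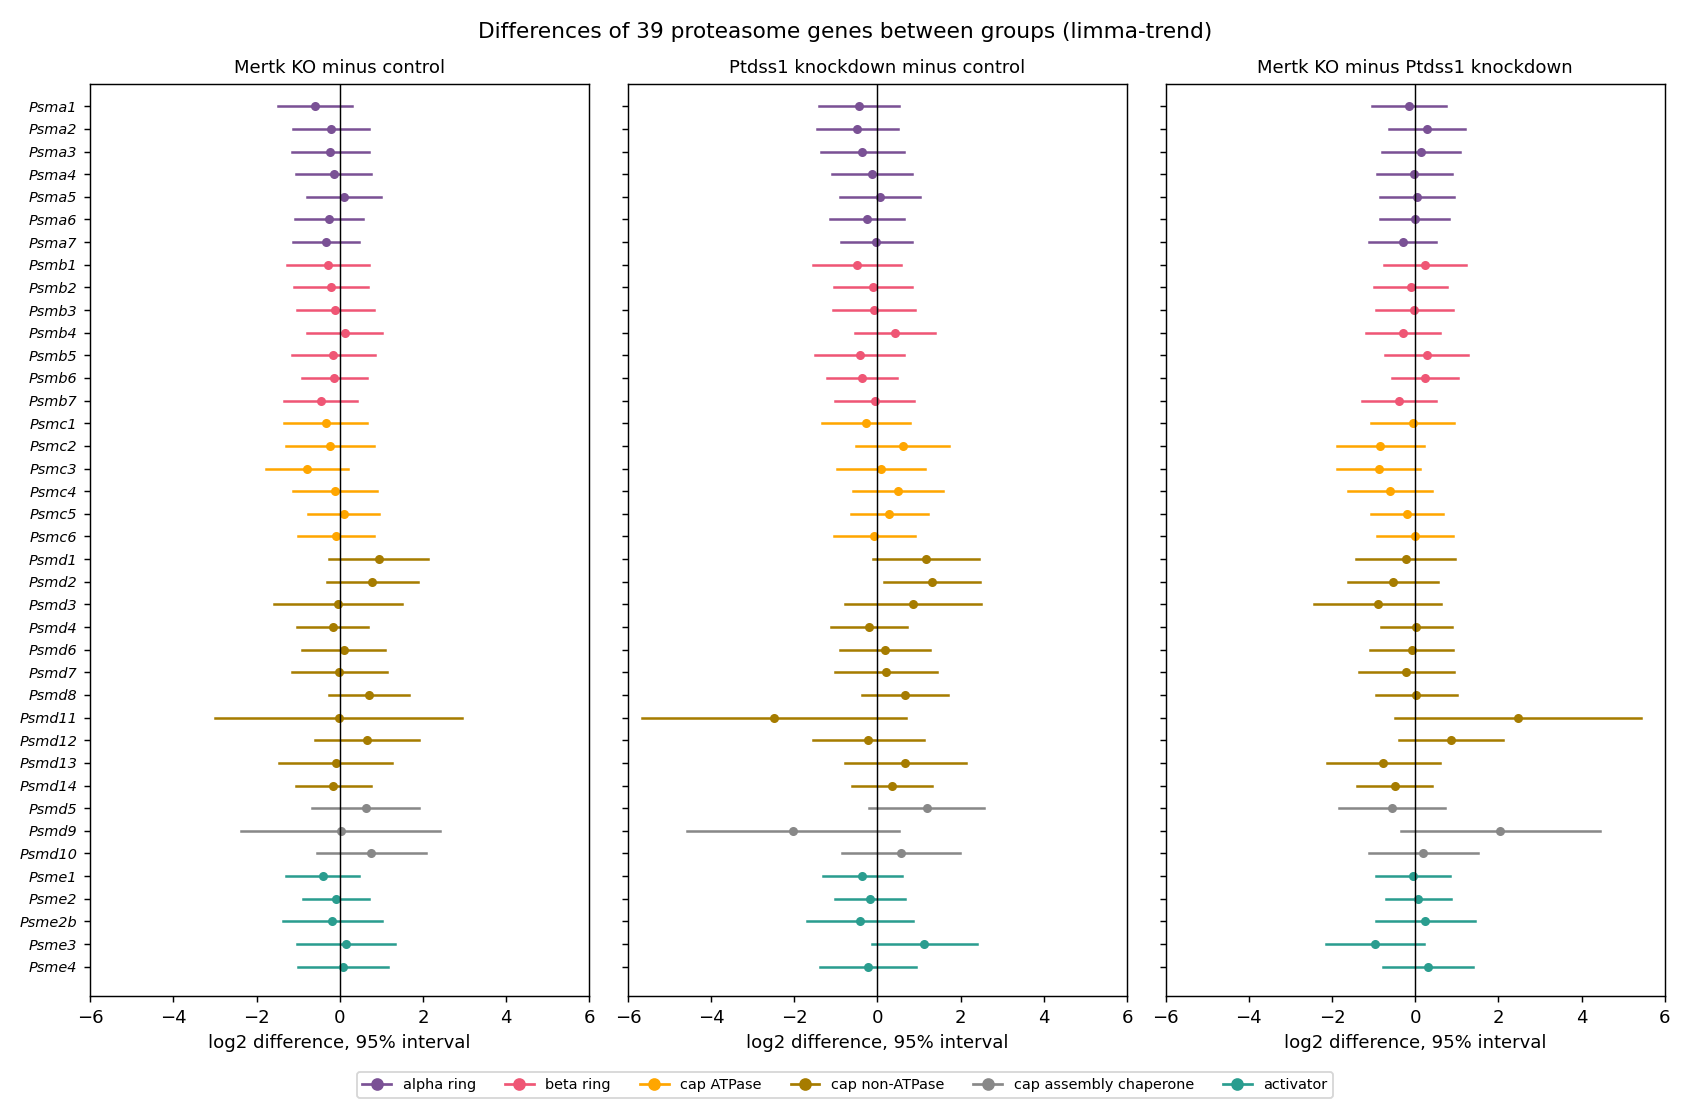
Log2 difference of each of 39 tested proteasome genes (points) with its 95% interval (lines) from limma-trend, in 3 comparisons, coloured by the part of the complex; Psma8 and Psmc3ip, read in few numbers, are left out. Among the genes shown only Psmd2, between Ptdss1 knockdown and control, has an interval that leaves out 0, and it did not pass the adjusted threshold; Psmd11 and Psmd9 have the widest intervals.

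The alpha ring of the core was read strongly in every library. Psma6, an alpha subunit, had the highest level per kilobase of merged exon in the ring, at 3490 ± 687 normalised reads (SD over 10 libraries, n = 10). Its log2 level was 12.41, 12.10 and 12.17 in control, 11.99, 12.37, 11.87 and 11.63 in Mertk KO, and 11.50, 12.23 and 12.20 in Ptdss1 knockdown. The groups overlapped, and the lowest value was that of Ptdss1 knockdown replicate 1. Psma6 differed by -0.26 between Mertk KO and control, with a 95% interval of -1.09 to 0.57, or by -0.15 without Mertk KO replicate 4 and -0.40 without Mertk KO replicate 2. Per kilobase of the longest coding transcript Psma7 led the ring instead, at 6163 ± 1311 (SD, n = 10). Psma1, Psma2, Psma3, Psma4 and Psma6 all had their lowest level in Ptdss1 knockdown replicate 1, between 10.54 and 11.51.

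The structural subunit Psmb2 had the highest level per kilobase of merged exon among the beta subunits, at 5245 ± 1528 (SD, n = 10). Per kilobase of the longest coding transcript Psmb6 led instead, at 9082 ± 2138 (SD, n = 10), and Psmb2 stood at 7351. The log2 level of Psmb2 was 13.06, 12.07 and 12.92 in control, 12.52, 12.86, 12.30 and 12.22 in Mertk KO, and 11.92, 13.16 and 12.65 in Ptdss1 knockdown. The groups overlapped widely, and the lowest values were those of Ptdss1 knockdown replicate 1 and control replicate 2. Psmb4, also a structural beta subunit, was the one core gene whose group ranges did not overlap in a comparison: it was at 11.48 to 11.55 in Mertk KO replicates 1, 3 and 4 and 11.72 in replicate 2, below the 11.84 to 11.90 of Ptdss1 knockdown. That difference was -0.29, with a standard error of 0.43 (limma adjusted p = 0.874).

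The 3 catalytic subunits of the constitutive core were read in all libraries. Psmb5 (chromosome 14, 54614119 to 54618022, minus strand, GRCm38) carries the chymotrypsin-like site. Its log2 level was 12.26, 11.96 and 11.69 in control, 11.78, 12.05, 11.88 and 11.57 in Mertk KO, and 10.30, 12.35 and 11.97 in Ptdss1 knockdown. Ptdss1 knockdown replicate 1 lay below every other library, and the other 9 overlapped. The difference was -0.15 between Mertk KO and control (95% interval -1.15 to 0.84) and -0.43 between Ptdss1 knockdown and control (-1.49 to 0.63). The latter turned to 0.19 without Ptdss1 knockdown replicate 1, and the former ran from -0.29 without control replicate 3 to -0.01 without control replicate 1.

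Psmb6 (chromosome 11, 70525367 to 70527858, plus strand) carries the caspase-like site. Its level was 12.78, 12.62 and 13.47 in control, 12.92, 13.13, 12.63 and 12.62 in Mertk KO, and 12.59, 12.65 and 12.53 in Ptdss1 knockdown. It was the steadiest core gene, with an SD of 0.30 over the 10 libraries, and its groups overlapped. Psmb7 (chromosome 2, 38588036 to 38644087, minus strand) carries the trypsin-like site and was at 11.75, 10.93 and 11.43 in control, 10.92, 11.41, 10.81 and 10.48 in Mertk KO, and 11.28, 11.41 and 11.22 in Ptdss1 knockdown. Its lowest values were in Mertk KO, with overlap, and the difference from control was -0.46 (95% interval -1.35 to 0.42), or -0.27 without control replicate 1. Per kilobase of merged exon the constitutive sites stood at 4142 ± 1219 for Psmb5, 3872 ± 912 for Psmb6 and 690 ± 172 for Psmb7 (SD, n = 10). With the longest coding transcript as the length, the values were 4142, 9082 and 2035, so Psmb7 stayed lowest while the order of Psmb5 and Psmb6 turned over.

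The immunoproteasome subunits that take the places of these sites were also read in all libraries. Psmb8, which replaces Psmb5, stood at 5008 ± 1120 normalised reads per kilobase of merged exon, Psmb9, which replaces Psmb6, at 2310 ± 580, and Psmb10, which replaces Psmb7, at 3481 ± 666 (SD, n = 10). Per kilobase of the longest coding transcript they were 10401, 6252 and 4528. By either length the mean of Psmb8 exceeded that of Psmb5 and the mean of Psmb10 that of Psmb7, while the mean of Psmb9 was below that of Psmb6. Per kilobase of merged exon, the means of Psmb8 and Psmb5 lay within an SD of each other. Reads of Psmb5 may also have been divided with copies, as described below.

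Within a library, the difference of log2 levels between an immunoproteasome gene and its constitutive partner does not depend on library size. Merged exons span 3381 bases in Psmb8 against 899 in Psmb5, and 3660 in Psmb9 against 1872 in Psmb6. For Psmb10 and Psmb7 they span 1705 and 3421. The difference is not corrected for these lengths, so its size does not compare amounts of transcript within or between pairs. For Psmb8 minus Psmb5 it was 2.28, 2.05 and 2.04 in control, 2.15, 1.76, 2.01 and 2.11 in Mertk KO, and 4.22, 1.70 and 2.04 in Ptdss1 knockdown. Ptdss1 knockdown replicate 1, with Psmb5 at its lowest, stood apart from the other 9 libraries, which lay between 1.70 and 2.28. For Psmb9 minus Psmb6 the mean was -0.002 ± 0.49 in control (SD, n = 3), 0.29 ± 0.24 in Mertk KO (SD, n = 4) and 0.31 ± 0.36 in Ptdss1 knockdown (SD, n = 3). For Psmb10 minus Psmb7 it was 1.18 ± 0.37, 1.62 ± 0.46 and 1.15 ± 0.37 in the same order. The groups overlapped in all 3 pairs, and the single genes Psmb8, Psmb9 and Psmb10 were not called in any comparison.

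**Figure D2:**
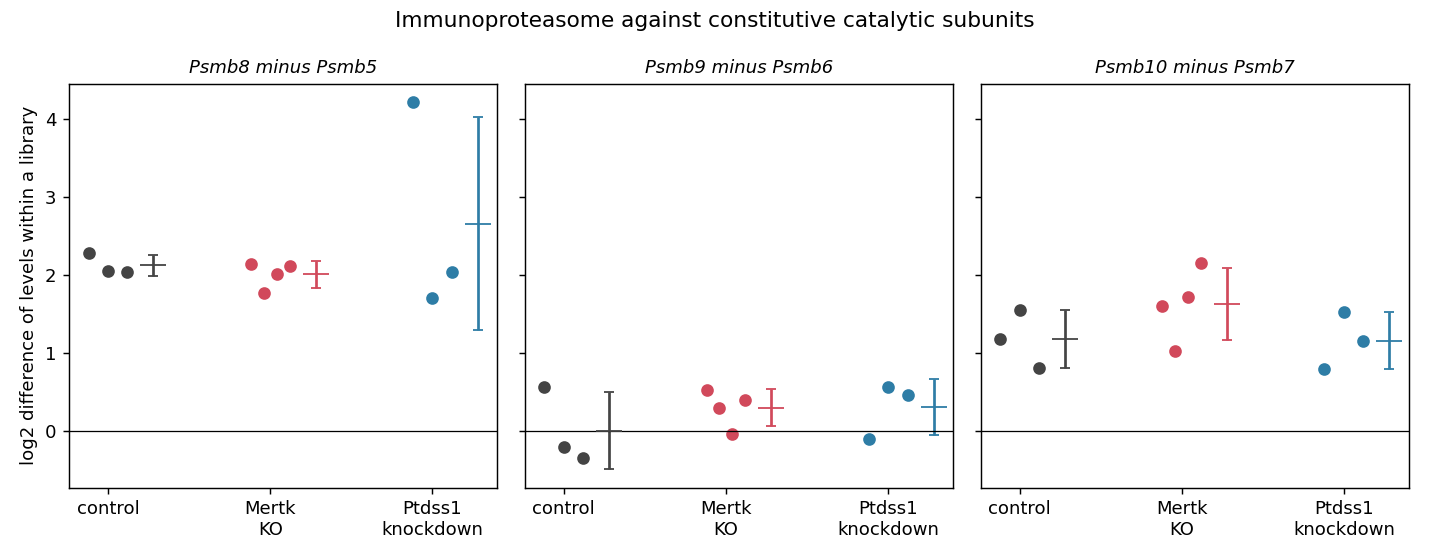
Difference of log2 levels within a library between each immunoproteasome subunit and the constitutive subunit it replaces; points are libraries, bars to the right of them the mean ± SD of the group (control n = 3, Mertk KO n = 4, Ptdss1 knockdown n = 3). The groups overlap in each panel, and 1 Ptdss1 knockdown library lies at 4.22 for Psmb8 minus Psmb5. Differences are not corrected for transcript length.

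The ATPase ring of the cap held the member with the smallest unadjusted p in 2 of the comparisons. Psmc3 (chromosome 2, 91054009 to 91066369, plus strand), one of the ATPases that unfold the substrate, was at 11.68, 12.01 and 10.38 in control, 10.11, 10.68, 11.06 and 10.42 in Mertk KO, and 11.78, 11.31 and 11.24 in Ptdss1 knockdown. All Mertk KO libraries lay below all Ptdss1 knockdown libraries, while control spanned both. Psmc3 differed by -0.88 between Mertk KO and Ptdss1 knockdown, with a standard error of 0.47 (limma adjusted p = 0.805). Against control the Mertk KO difference was -0.79, with a 95% interval of -1.78 to 0.20 (limma adjusted p = 1.00). It was -0.47 without control replicate 2 and -1.28 without control replicate 3.

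Psmc5, another ATPase of the ring, had the highest level per kilobase of merged exon in the cap, at 1771 ± 341 (SD, n = 10), and 1876 per kilobase of the longest coding transcript. Its log2 level was 11.41, 11.15 and 10.81 in control, 10.77, 11.25, 11.56 and 11.29 in Mertk KO, and 11.68, 11.23 and 11.32 in Ptdss1 knockdown. The groups overlapped, and it was the steadiest ATPase, with an SD of 0.29 over the 10 libraries. The 6 ATPases averaged 10.88 ± 0.38 in control (SD, n = 3), 10.64 ± 0.28 in Mertk KO (SD, n = 4) and 11.07 ± 0.20 in Ptdss1 knockdown (SD, n = 3).

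Among the non-ATPase subunits of the cap, Psmd2 had the largest difference above 0 between Ptdss1 knockdown and control. Psmd2 (chromosome 16, 20651652 to 20663414, plus strand) is a large scaffold subunit that docks ubiquitin shuttle factors. Its level was 10.49, 9.88 and 10.41 in control, 10.72, 10.71, 11.55 and 11.18 in Mertk KO, and 12.86, 10.59 and 11.25 in Ptdss1 knockdown. Every library of both other groups lay above every control library, and Ptdss1 knockdown replicate 1 was highest. The difference was 0.78 between Mertk KO and control, with a standard error of 0.52 (limma adjusted p = 1.00), and 1.31 between Ptdss1 knockdown and control, with a standard error of 0.55 (limma adjusted p = 0.841). Without Ptdss1 knockdown replicate 1 the latter was 0.66. Without the 4 libraries that missed most genes the differences were 0.27 and 0.47. Both comparisons use the same control libraries.

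Group ranges that do not overlap were no more frequent among members than among all genes. Psmd2 was the 1 member with separate ranges between Mertk KO and control, where the share was 5.62% of all genes tested. Psmd2 and Psmd5 were the 2 members between Ptdss1 knockdown and control, where the share was 6.92%. Psmc3 and Psmb4 were the 2 members between Mertk KO and Ptdss1 knockdown, where it was 5.23%. As shares of the 41 members these counts were 2.44%, 4.88% and 4.88%.

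Psmd1, the other large scaffold of the cap base, was also highest in Ptdss1 knockdown replicate 1. It was at 9.83, 10.56 and 9.64 in control, 10.36, 10.38, 11.83 and 11.24 in Mertk KO, and 12.54, 10.28 and 10.73 in Ptdss1 knockdown. Control overlapped both groups through control replicate 2. The difference was 0.94 between Mertk KO and control (95% interval -0.25 to 2.13) and 1.17 between Ptdss1 knockdown and control (-0.10 to 2.44). The latter was 0.49 without Ptdss1 knockdown replicate 1.

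Psmd8, a subunit of the lid of the cap, was at 11.17, 9.77 and 11.37 in control, 11.30, 11.20, 11.93 and 11.44 in Mertk KO, and 11.15, 11.55 and 11.62 in Ptdss1 knockdown. Control replicate 2 stood below all other libraries, which lay between 11.15 and 11.93. Psmd7, the lid partner of the deubiquitinase Psmd14, had the highest level per kilobase of merged exon among the non-ATPase subunits, at 977 ± 518 (SD, n = 10); by longest coding transcript Psmd14 led, at 1616 ± 480. The level of Psmd7 was 11.07, 11.37 and 10.24 in control, 10.27, 10.89, 11.35 and 11.02 in Mertk KO, and 12.31, 9.86 and 11.13 in Ptdss1 knockdown. Its highest and its lowest value both fell in the Ptdss1 knockdown group. Psmd4, a ubiquitin receptor of the cap, was the steadiest member, between 10.70 and 11.32 with an SD of 0.21.

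Psmd11 (chromosome 11, 80428615 to 80473248, plus strand), a lid subunit that clamps the cap to the core, was close to lost from 1 library. It had 9 reads in Ptdss1 knockdown replicate 1, a level of 3.14, against 705 to 2945 reads and levels of at least 9.55 in the other 9 libraries. The assembly chaperone Psmd9 (chromosome 5, 123169413 to 123250131, plus strand) behaved alike in the same library, with 10 reads and a level of 3.27 against 8.95 to 9.80 elsewhere. In that library Psmd3, Psmd2, Psmd1 and Psmd13 reached 13.05, 12.86, 12.54 and 12.44, above every other library. The SD of levels over the 17 cap subunits was 2.32 there and 0.43 to 0.71 in the other libraries. The fitted differences of Psmd11 and Psmd9 between Ptdss1 knockdown and control, -2.50 (95% interval -5.67 to 0.68) and -2.02 (-4.58 to 0.53), rest on it: without it they were -0.12 and 0.05. Neither was called (limma adjusted p = 0.841 for both). Between Mertk KO and Ptdss1 knockdown they were 2.47 (-0.50 to 5.44) and 2.04 (-0.34 to 4.43), or 0.10 and -0.03 without it.

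**Figure D3:**
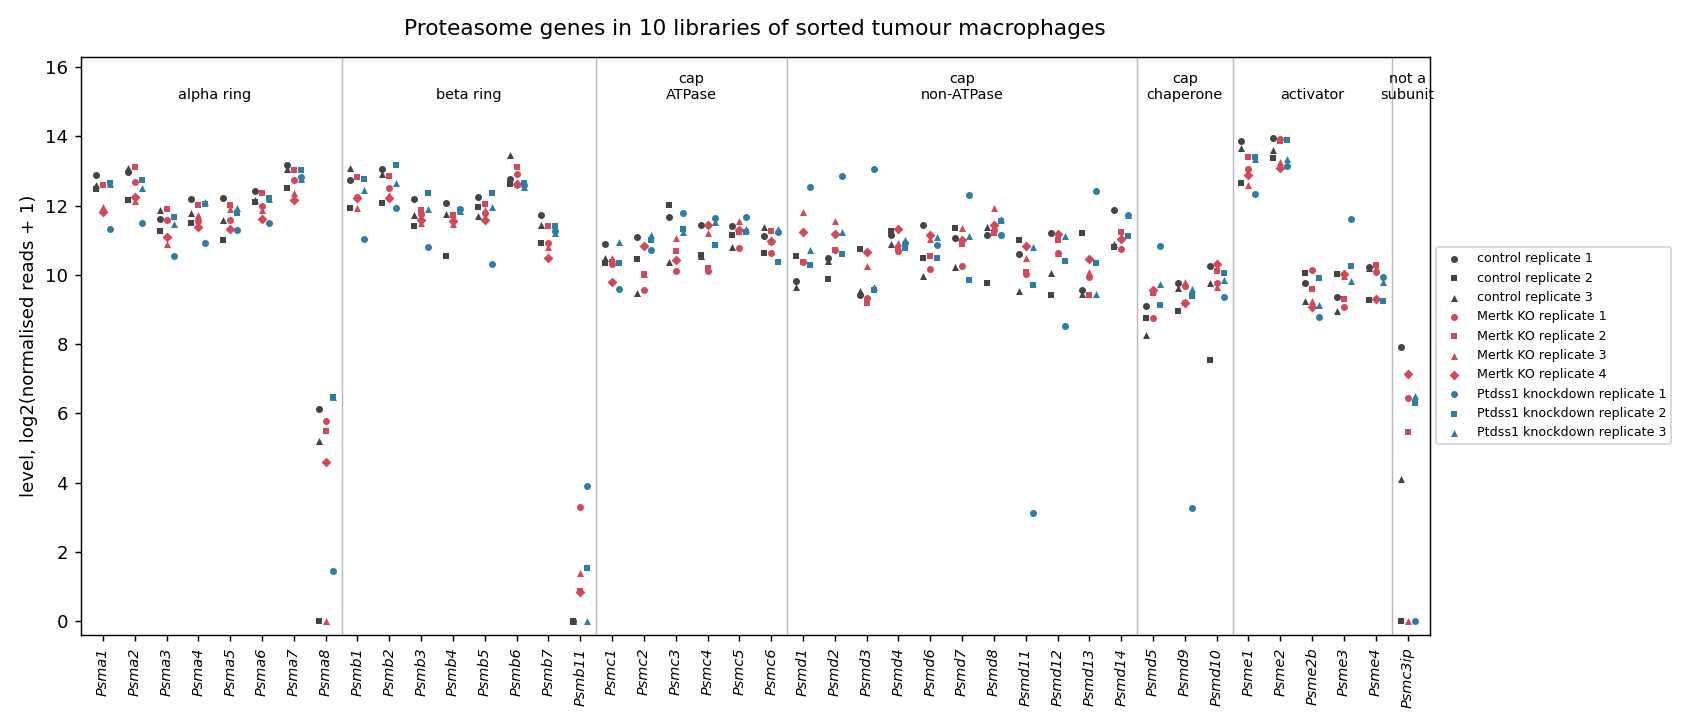
Log2 level of each of the 42 genes in each of the 10 libraries, grouped by the part of the complex; colour gives the group and the symbol the replicate. The core genes lie close together, the cap genes of Ptdss1 knockdown replicate 1 scatter from 3.14 (Psmd11) to 13.05 (Psmd3), and Psma8, Psmb11 and Psmc3ip are low or at 0.

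The remaining assembly chaperones of the cap base were Psmd10 and Psmd5. Psmd10, also called gankyrin, was the highest of the 3 chaperones per kilobase of merged exon, at 611 ± 214 (SD, n = 10). It was at 10.26, 7.56 and 9.76 in control, 9.77, 10.10, 9.64 and 10.31 in Mertk KO, and 9.37, 10.06 and 9.86 in Ptdss1 knockdown. Control replicate 2 was the lowest, and the other 9 libraries lay between 9.37 and 10.31. Psmd5 was at 9.11, 8.77 and 8.28 in control, 8.76, 9.48, 9.57 and 9.56 in Mertk KO, and 10.82, 9.13 and 9.74 in Ptdss1 knockdown. All 3 Ptdss1 knockdown libraries were above control, by a fitted 1.18 with a standard error of 0.65 (limma adjusted p = 0.841), or by 0.72 without replicate 1.

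The interferon-inducible activator gene Psme2 had the highest level per unit length of all members, by either length. Psme2 (chromosome 14, 55587441 to 55591113, minus strand) stood at 6956 ± 1626 normalised reads per kilobase of merged exon and Psme1 (chromosome 14, 55578123 to 55581529, plus strand) at 4255 ± 1427 (SD, n = 10); their proteins form a mixed ring that opens the core. The level of Psme1 was 13.86, 12.66 and 13.68 in control, 13.06, 13.40, 12.60 and 12.88 in Mertk KO, and 12.35, 13.41 and 13.34 in Ptdss1 knockdown. The level of Psme2 was 13.94, 13.37 and 13.60 in control, 13.94, 13.87, 13.28 and 13.09 in Mertk KO, and 13.16, 13.90 and 13.34 in Ptdss1 knockdown. The groups overlapped for both. Against control, Psme1 differed by -0.41 in Mertk KO (95% interval -1.30 to 0.47) and by -0.37 in Ptdss1 knockdown (-1.31 to 0.58), and Psme2 by -0.09 (-0.89 to 0.70) and -0.17 (-1.02 to 0.67). Single libraries decided these sizes: in Mertk KO, Psme1 was at -0.78 without control replicate 2 and -0.18 without control replicate 1, and Psme2 at 0.06 without control replicate 1. In Ptdss1 knockdown, both were at -0.02 without replicate 1 of that group.

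Psme3 encodes the nuclear activator of this family and Psme4 a large single-chain activator. Psme3 was at 9.37, 10.03 and 8.95 in control, 9.09, 9.31, 9.98 and 10.03 in Mertk KO, and 11.62, 10.26 and 9.84 in Ptdss1 knockdown. The Ptdss1 knockdown libraries were high, with overlap through control replicate 2 and Mertk KO replicates 3 and 4. The difference was 1.12 between Ptdss1 knockdown and control (95% interval -0.14 to 2.39) and 0.60 without Ptdss1 knockdown replicate 1. Between Mertk KO and Ptdss1 knockdown it was -0.97 (-2.15 to 0.21), or -0.45 without Ptdss1 knockdown replicate 1. Psme4 was at 10.22, 9.26 and 10.20 in control, 10.10, 10.30, 10.21 and 9.29 in Mertk KO, and 9.94, 9.26 and 9.80 in Ptdss1 knockdown, with overlap of all groups.

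Psme2b (chromosome 11, 48945354 to 48946190, minus strand) is a single-exon copy of Psme2. Over the 717 coding bases of the annotated transcripts the genes differ at 5 positions, an identity of 99.3%, and 51.7% of the 75-base windows of the Psme2 transcript occur unchanged in Psme2b. Reads assigned to Psme2b were 4.82% to 10.1% of those assigned to Psme2 and can have come from either gene, so its level of 8.78 to 10.14 is uncertain. The 60-base window that holds most of the differences, coding bases 484 to 543 in the GENCODE M21 transcripts of GRCm38, is shown 5′ to 3′ with the 3 differing bases in capitals.
Psme2: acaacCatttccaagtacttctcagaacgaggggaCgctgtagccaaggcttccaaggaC
Psme2b: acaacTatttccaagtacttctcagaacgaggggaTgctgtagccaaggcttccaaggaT

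Other members also share sequence with copies elsewhere. Of the 42 members, 28 had no 75-base window of their longest coding transcript in a transcript of another gene, 6 shared under 10% of windows, and 8 shared at least 10%. Besides the Psme2 pair these were Psmb5 (40.0%), Psma5 (39.8%), Psmb3 (33.1%), Psma3 (21.3%), Psmd2 (15.1%) and Psma4 (12.9%). Their values are uncertain to the extent that reads of length 75 were divided between copies.

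The members known for other tissues were read at a low level. Psma8, the alpha subunit of the testis proteasome, had 0 reads in control replicate 2 and Mertk KO replicate 3 and at most 143 in any library. Psmc3ip had 0 reads in control replicate 2, Mertk KO replicate 3 and Ptdss1 knockdown replicate 1 and at most 295 elsewhere. Psmb11, the beta subunit of thymic cortical epithelium, had 0 to 16 reads and did not pass the filter. For Psma8 and Psmc3ip the libraries at 0 are among the 4 that missed most genes.

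The core and the cap varied between libraries in different ways. The 14 core subunits Psma1 to Psma7 and Psmb1 to Psmb7 had a median SD of 0.43 over the 10 libraries, against 0.61 for the 759 other genes in the same range of mean levels. The 17 cap subunits had a median SD of 0.62, against 0.68 for 2006 other genes in their range. Per kilobase of merged exon, core subunits ran from 690 to 5245 normalised reads with a median of 1728, and cap subunits from 194 to 1771 with a median of 631. By longest coding transcript the medians were 3569 and 935.

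By group, most core subunits lay below control, by less than the spread between libraries, and the cap subunits were mixed. The median of the 14 core genes was -0.21 between Mertk KO and control, with 2 above 0 and 12 below, and that of the 17 cap genes was -0.04, with 6 above and 11 below, and 0.05 with voom. That cap median had no stable sign: it was 0.14, with 11 above and 6 below, without control replicate 1, 0.11 without control replicate 2, and -0.26, with 5 above and 12 below, without control replicate 3. Of the Mertk KO libraries, omitting replicate 1 gave 0.11 (11 above, 6 below), replicate 2 gave 0.08, replicate 3 gave -0.13 and replicate 4 gave -0.15. The core median of this comparison stayed below 0, from -0.37 without Mertk KO replicate 2 to -0.11 without control replicate 3. It was -0.36, with 0 above and 14 below, without control replicate 2. Between Ptdss1 knockdown and control, the core median was -0.19, with 2 above 0 and 12 below, and the cap median 0.29, with 12 above and 5 below; with upper-quartile scaling they were -0.40 (1 above, 13 below) and 0.07 (9 above, 8 below). These counts share the control libraries, and 0 of these genes were called. Without Ptdss1 knockdown replicate 1 the core median was 0.01, with 7 genes on each side, and the cap median 0.15. Without control replicate 1 the core median between Ptdss1 knockdown and control was -0.05, with 7 on each side. Between Mertk KO and Ptdss1 knockdown the core median was -0.01 and the cap median -0.22 (0.21 and 0.002 with upper-quartile scaling), and without Ptdss1 knockdown replicate 1 they were -0.31 and 0.04.

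Within a library, the mean log2 level of the core minus that of the cap was 1.54, 1.07 and 2.01 in control, 1.64, 1.81, 0.85 and 0.75 in Mertk KO, and 0.46, 1.76 and 1.15 in Ptdss1 knockdown. The groups overlapped, and libraries of 1 group differed by as much as the groups did. The mean was 1.54 ± 0.47 in control (SD, n = 3), 1.26 ± 0.54 in Mertk KO (SD, n = 4) and 1.12 ± 0.65 in Ptdss1 knockdown (SD, n = 3). The 4 lowest libraries were the 4 that missed most genes.

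Core transcripts are shorter than cap transcripts, with a median longest coding transcript of 1162.5 bases against 1819. In each library, 372 other genes no longer than the core median were therefore set against 1897 other genes no shorter than the cap median, all within the range of mean levels of the core and cap. The median deviation of the short genes from their own means, minus that of the long genes, was 0.26, -0.48 and 0.96 in control, 0.38, 0.66, -0.44 and -0.44 in Mertk KO, and -1.86, 0.77 and 0.03 in Ptdss1 knockdown. Libraries in which core stood low against cap were those in which short genes stood low against long ones. The part of transcript length and of missed genes in the core and cap values was not tested.

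**Figure D4:**
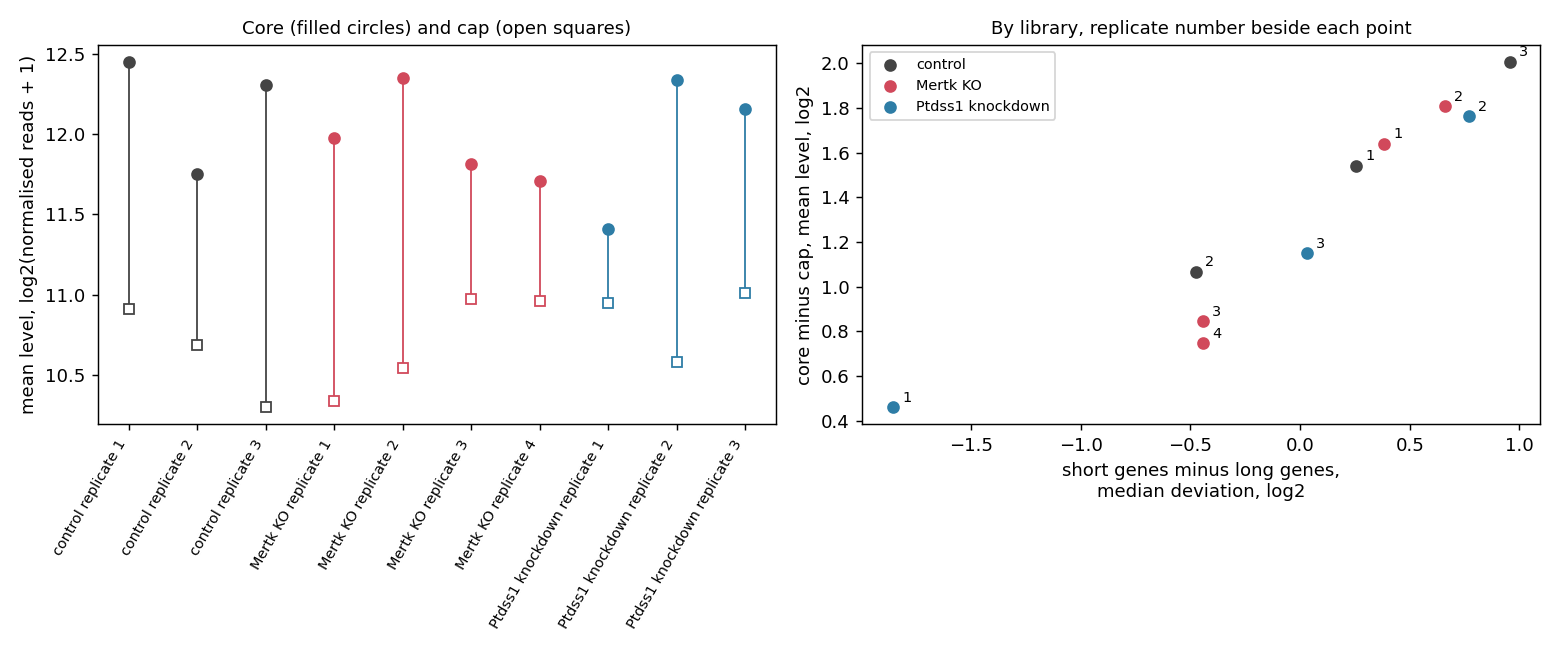
Left, mean log2 level of the 14 core subunits (filled circles) and the 17 cap subunits (open squares) in each library. Right, core minus cap on the y axis against short minus long genes outside the set on the x axis, both log2, 1 point per library; Ptdss1 knockdown replicate 1 lies lowest on both axes (0.46 and -1.86) and control replicate 3 highest (2.01 and 0.96).

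Genes that build, regulate and feed the proteasome showed no called change either. Of 13 tested genes of assembly and regulation, among them the core maturation factor Pomp, 0 were called in each comparison, and the same held for 8 deubiquitinases and shuttle factors, 11 genes around the transcription factor Nfe2l1, 6 genes of ubiquitin and its activation and the 3 immunoproteasome genes. Their medians between Ptdss1 knockdown and control were 0.03, 0.69, 0.46, -0.02 and -0.06 in that order, and between Mertk KO and control -0.22, 0.45, -0.02, -0.24 and -0.01. In the lists at 0.69 and 0.46, Ptdss1 knockdown replicate 1 stood above every other library for genes such as Ubqln1 (12.77), Vcp (13.67), Sel1l (13.26) and Keap1 (11.38). It stood below every other library for Rad23b (7.10) and Mafk (5.91). The medians of these lists without that library were not computed. Nfe2l1, which drives proteasome genes when the protease is inhibited, was at 8.95, 10.18 and 8.68 in control, 9.59, 9.45, 8.49 and 9.45 in Mertk KO, and 12.18, 8.86 and 8.81 in Ptdss1 knockdown. Apart from Ptdss1 knockdown replicate 1 its groups overlapped. Usp14, the deubiquitinase bound to Psmd2, was likewise highest in that library, at 12.48 against 9.26 to 10.99 in the others. Psmg2, a chaperone of the alpha ring, was at 1.45 there and at 2.08 in Mertk KO replicate 3, against 7.55 to 10.04 elsewhere.

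Promoter windows were found for 35 of the 42 members in the RefSeq promoter table of GRCm38.p6, from 250 bases before to 50 bases after each gene start. The antioxidant response element core through which Nfe2l1 acts was searched as TGACNNNGC on both strands. It stood in the windows of 6 of the 35 members (17.1%) and of 13.99% of all 27025 genes with a window. The box bound by NF-Y, CCAAT on both strands, stood in 14 members (40.0%) and in 41.1% of all genes. The stretches around the response element letters are shown 5′ to 3′ on the strand of the gene, with the matched letters in capitals, since this is the element known for joint control of proteasome genes. In Psmc6, Psmd12 and Psme4 the match is on the opposite strand, so the capitals read as its reverse complement.
Psmb5, chr14:54618008-54618067, minus strand: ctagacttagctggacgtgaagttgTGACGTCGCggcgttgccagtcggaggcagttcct
Psmb6, chr11:70525323-70525356, plus strand: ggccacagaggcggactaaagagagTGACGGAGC
Psmc6, chr14:45329574-45329631, plus strand: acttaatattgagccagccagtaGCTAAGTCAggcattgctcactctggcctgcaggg
Psmd12, chr11:107479278-107479315, plus strand: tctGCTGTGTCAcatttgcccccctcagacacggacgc
Psmd9, chr5:123228134-123228189, plus strand: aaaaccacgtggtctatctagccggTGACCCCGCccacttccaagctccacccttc
Psme4, chr11:30771743-30771776, plus strand: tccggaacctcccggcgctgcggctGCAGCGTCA
A match is a description of letters and says nothing of binding in these cells.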

How the data were processed

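Macrophages had been sorted from tumours by FACS. Per the labels' protocols, cDNA was made with a SMART-Seq v4 low-input kit, amplified, sheared and sequenced as single reads of 75 cycles, without strand. The submitters' processing notes name STAR, RSEM and the mm10 build (GRCm38) and do not name an annotation. The authors deposited 1 table per library; its unit is not stated, but its values are log2 of normalised reads plus a pseudocount of 1, since undoing the log gave whole reads (tolerance 0.01 of a read) for 100% of values. A count test was not the main test because the deposited values are log2. Without molecular identifiers, amplified reads are not independent molecules.

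All 10 libraries, grouped by their labels, entered 1 fit of limma-trend (limma 3.58.1, R 4.3.3) with robust moderation over the 11564 genes with at least 10 reads in at least 3 libraries; the fit was checked on simulated data. Adjusted p is Benjamini-Hochberg over all genes, two-sided, with a threshold of 0.05. Levels per kilobase divide normalised reads by merged exon length or by the longest coding transcript of GENCODE M21, to which all 21938 gene IDs matched; coordinates are from it. Figures were drawn with matplotlib 3.10.9.

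Values are given per library for the constitutive catalytic subunits, Psme1 to Psme4 and the member with the highest level per kilobase in each class. They are also given for the 4 members with the smallest p in each comparison, for Psmd11 and Psmd9 in part as a range. Psmb8 is given per library only as its difference from Psmb5, and Psmb9 and Psmb10 as group means of such differences. Psmb4, Psmd4, Nfe2l1, Usp14, Psmg2, Ubqln1, Vcp, Sel1l, Keap1, Rad23b and Mafk were named after their values were seen. The members, lists and alternatives were chosen with earlier results of these data known. Alternatives were other size factors, no filter or 50 reads, voom, no robust moderation, only the compared groups, a pseudocount of 8, library weights, and leaving out libraries. The Paaf1 gene of the assembly list was not analysed here.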

Additional observations from a re-analysis of the deposited data

Results flagged for a closer look

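In the Mertk KO group, 1 of the 41 tested members had a library far from the others of its group. Psmd5, an assembly chaperone of the cap, was at a log2 level of 8.761 in Mertk KO replicate 1, while the other 3 libraries lay between 9.48 and 9.57. The gap was 0.885 of the whole range, above Dixon's 95% critical value for 4 libraries. Chance flags about 1 in 20 such groups. Control and Ptdss1 knockdown, with 3 libraries each, were not examined in this way.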

How the results depend on the processing

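No paired analysis was possible because the labels give no replicate numbers shared between groups. The count of called members was 0 in all 3 comparisons under all 63 alternative results. Of the 63 recomputed medians, 44 differed from the reported value, all by less than 0.24, the SD of library medians within groups. With library weights 25, 2 and 35 of all genes were called between Mertk KO and control, Ptdss1 knockdown and control, and Mertk KO and Ptdss1 knockdown, with 0 members among them. Leaving out 1 library at a time, the median ran from -0.23 (without control replicate 2) to 0.08 (without control replicate 1) between Mertk KO and control, from -0.27 to 0.12 (without the same libraries) between Ptdss1 knockdown and control, and from -0.15 (without Ptdss1 knockdown replicate 1) to 0.08 (without Ptdss1 knockdown replicate 3) between Mertk KO and Ptdss1 knockdown. These changes of sign are within the spread of libraries. Upper-quartile scaling, whose factor for Ptdss1 knockdown replicate 1 was 1.68 against 1.00, moved the median of all genes to -0.24 between Ptdss1 knockdown and control and to 0.30 between Mertk KO and Ptdss1 knockdown, the members' median to -0.28 and 0.17, and the core and cap medians of Mertk KO minus Ptdss1 knockdown to 0.21 and 0.00. With voom the cap median between Mertk KO and control was 0.05. For the 20 members named by values, 819 of 1260 recomputed differences differed from the reported value, and 110 of these changed sign, all uncalled. Leaving out the 4 libraries that missed most genes was added after seeing the data. With 3 or 4 libraries a group, even fitted differences above a doubling, such as that of Psmd2 at 1.31, did not pass.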
